A study of Mus musculus with 100 samples.

Results

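Knee joints of MRL/MpJ mice were compared 1-day after rupture of the anterior cruciate ligament (ACL) with the uninjured contralateral joints of the same strain and day, by sequencing of polyadenylated RNA. The 10 libraries of this comparison, 5 injured and 5 uninjured, were taken by strain, time and joint from the 100 libraries of the series, and all 17310 genes were tested. The study followed 3 strains that differ in how readily such an injury leads to post-traumatic osteoarthritis, and its labels give MRL/MpJ as not susceptible. The other strains were C57BL/6, which the study describes as moderately susceptible, and STR/ort, which it describes as highly susceptible. Their 1-day joints and the MRL/MpJ joints of 1-week served for further comparisons. The mice were 10 weeks old. The right joint received one tibial compression of 10 to 12 N under anaesthesia with buprenorphine analgesia directly afterwards, and the left joint of injured mice served as the control, so no sham-loaded or untreated mouse was in the control group. The whole joint was used, with bone, marrow, cartilage, synovium, ligament and traces of muscle, and in such bulk samples fewer cells of a type and less RNA per cell cannot be told apart. The labels do not say which injured and uninjured joints came from one animal, and the p-values rest on the spread within groups over the 30 1-day libraries of 3 strains that were fitted together, which may be technical.

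Total counts per library were 10230445 to 11740068 in the injured and 9790572 to 12741841 in the uninjured group, and 6182016 to 10808962 in the 4 MRL/MpJ libraries of 0-day, which give a background from mice that were never injured. Markers of the tissues of a whole joint were present, as chondrocyte markers summed to 1918 to 3757 CPM over the 10 libraries, osteoblast and osteocyte markers to 6228 to 10060 CPM, neutrophil markers to 14310 to 18820 CPM and fast muscle markers to 59470 to 110000 CPM, and none of the markers measured was at 0 in all libraries. CPM are counts relative to the library total, after scaling by TMM factors, which correct for differences in composition between libraries. Injured replicate 5 stood apart from the other injured libraries with a summed fast muscle level of 105300 CPM against 59470 to 72490 CPM, and the second principal component, which held 13.1% of the variance, placed it at 32.4, apart from the remaining 9 libraries.

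A ligament rupture bleeds into the joint, damages resident cells and sets off an acute response in synovium, fat and muscle within hours. Stromal cells and macrophages release chemokines that draw monocytes and neutrophils, cytokines of the interleukin-6 (IL-6) family that act through the shared receptor gp130 and STAT3, and proteases with their inhibitors that open the matrix for repair. Metallothioneins, acute phase proteins and stress proteins of muscle fibres are induced by the same kind of trauma, and collagen synthesis and remodelling follow later.

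Relative to the uninjured contralateral joints, 264 genes were higher in the injured joints (1.53% of the genes tested) and 86 were lower (0.497%) at an adjusted p under 0.05 and a fold change above 1.5, by the quasi-likelihood test of edgeR with Benjamini-Hochberg adjustment over all genes. These genes are named called below. The median log2 fold change was 0.96 over the genes called higher and -0.962 over those called lower, against 0.00632 over all genes. In 228 of the 264 genes every injured library was above every uninjured library, and in 75 of the 86 every injured library was below, where 3.87% and 2.09% of all genes were separated in these directions. The first principal component held 24.3% of the variance and separated the groups, with the injured libraries from -26.6 to -9.19 and the uninjured from 12.6 to 24.8. The count of higher genes was 178 without injured replicate 2, which had the highest level of 143 of the 264, and 236 without injured replicate 5. The count of lower genes was 61 without injured replicate 2 and 159 without injured replicate 5.

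**Figure D1:**
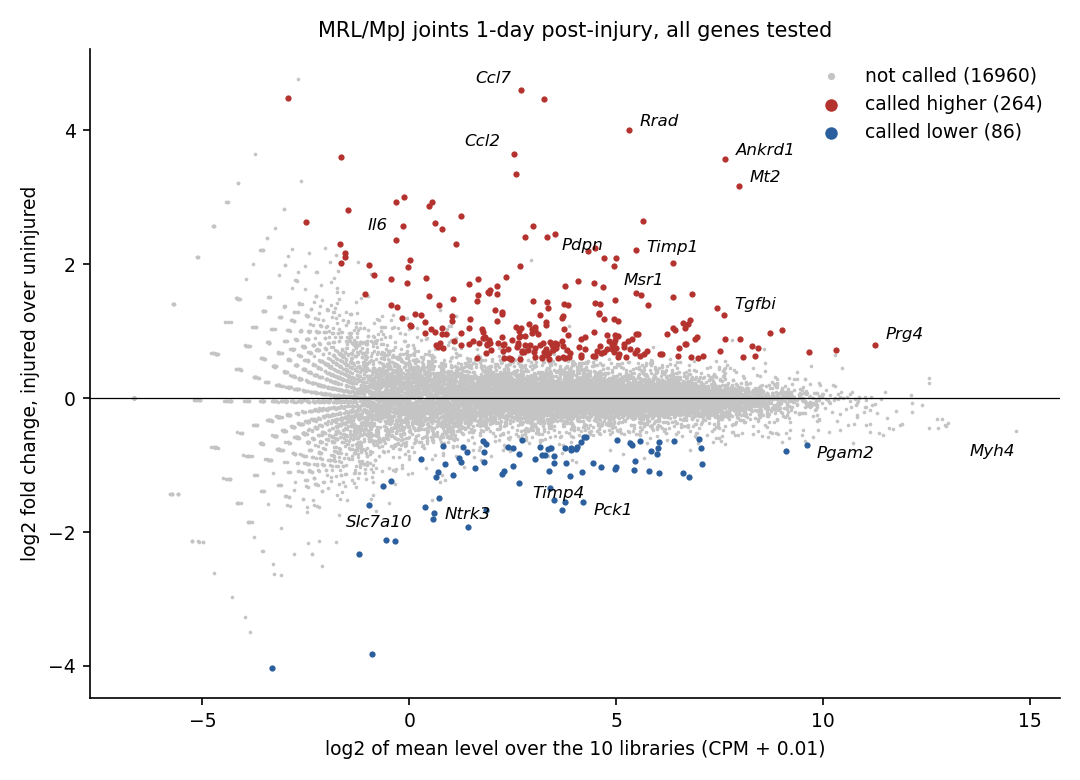
Log2 fold change (injured over uninjured contralateral, MRL/MpJ, 1-day post-injury) of every gene tested against the log2 of its mean level over the 10 libraries (CPM + 0.01). Red points are the 264 genes called higher, blue points the 86 called lower and grey points the genes not called. Ccl7 and Rrad lie highest among the labelled genes.

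The genes with the smallest adjusted p among those up-regulated included a stromal glycoprotein and receptors of macrophages, described first. Pdpn (chr4:143267409-143299564, build GRCm38), podoplanin, a membrane glycoprotein of lymphatic endothelium and of activated synovial fibroblasts, had 47.8, 61.7, 44.5, 55.04 and 48.9 CPM in the 5 injured joints and 13.8, 13.98, 14.02, 10.03 and 9.905 CPM in the uninjured joints. Every injured joint was above every uninjured joint, 4.27-fold on average (log2 fold change 2.09, SE 0.14, adjusted p = 2.75e-11), and the 0-day joints had 7.67 to 11.4 CPM. Msr1 (chr8:39543232-39642750), a scavenger receptor of macrophages, was at 41.8, 63.1, 41.6, 50.2 and 46.2 CPM in injured and 15.6, 15.2, 10.2, 11.4 and 10.7 CPM in uninjured joints. Its difference was 3.92-fold (adjusted p = 5.13e-11) with no overlap. C3ar1 (chr6:122847140-122856157), the receptor for complement fragment C3a, had 33.9, 53.1, 29.7, 34.99 and 31.9 CPM against 10.9, 8.02, 7.01, 7.299 and 6.47 CPM. Injured replicate 2 was the highest and the remaining injured joints lay close together, and over all 5 injured joints the difference was 4.73-fold (adjusted p = 3.68e-09).

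Others of these genes included a muscle GTPase, metallothioneins, a protease inhibitor and a chemokine. Rrad (chr8:104628070-104631350), a small GTPase of muscle that restrains calcium channels, had 38.9, 88.3, 75.9, 54.7 and 117 CPM in injured joints and 7.84, 4.66, 4.25, 3.43 and 3.77 CPM in uninjured joints. Levels after injury differed 3 times between the lowest and highest joint, all far above the control joints (16.1-fold, log2 4.01, SE 0.32, adjusted p = 6.93e-10). Mt2 (chr8:94172618-94173567), a metal-binding metallothionein, had 277, 617, 366, 394 and 605 CPM against 69.7, 44.01, 33.1, 55.2 and 53.3 CPM. Its neighbour Mt1 (chr8:94178883-94180327) had 91.4, 156, 118, 126 and 169 CPM against 35.9, 32.4, 27.2, 35.9 and 33.3 CPM. The 2 metallothioneins were up-regulated 8.96-fold (adjusted p = 8.02e-09) and 4.06-fold (adjusted p = 1.19e-08), and both were highest in injured replicates 2 and 5. Timp1 (chrX:20870166-20874737), a secreted inhibitor of metalloproteinases, had 68.2, 95.6, 65.01, 71.2 and 64.4 CPM against 18.9, 17.6, 11.3, 16 and 15.7 CPM, and was 4.65-fold higher (adjusted p = 2.93e-08). Tgfbi (chr13:56609586-56639359), a matrix protein induced by TGF-β, was at 262, 324, 247, 288 and 235 CPM in injured and 125, 122, 111, 107 and 116 CPM in uninjured joints. Tubb6, a β-tubulin, was at 28.3, 38.02, 29.6, 30.4 and 35.9 CPM and 11.2, 12.7, 13.4, 12.1 and 12.3 CPM. Neither gene overlapped between the groups, with folds of 2.37 (adjusted p = 3.68e-09) and 2.67 (adjusted p = 6.93e-10). Ccl7 (chr11:82045712-82047525), a monocyte chemokine, was close to absent in control joints, at 1.61, 0.6503, 0.106, 0.0879 and 0.246 CPM, and reached 11.1, 16.9, 10.5, 11.5 and 12.3 CPM after injury (log2 4.61, SE 0.46, adjusted p = 5.25e-08). Its level at 0-day was 0 to 0.517 CPM, and uninjured replicate 1 was the control joint nearest to the injured ones.

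**Figure D2:**
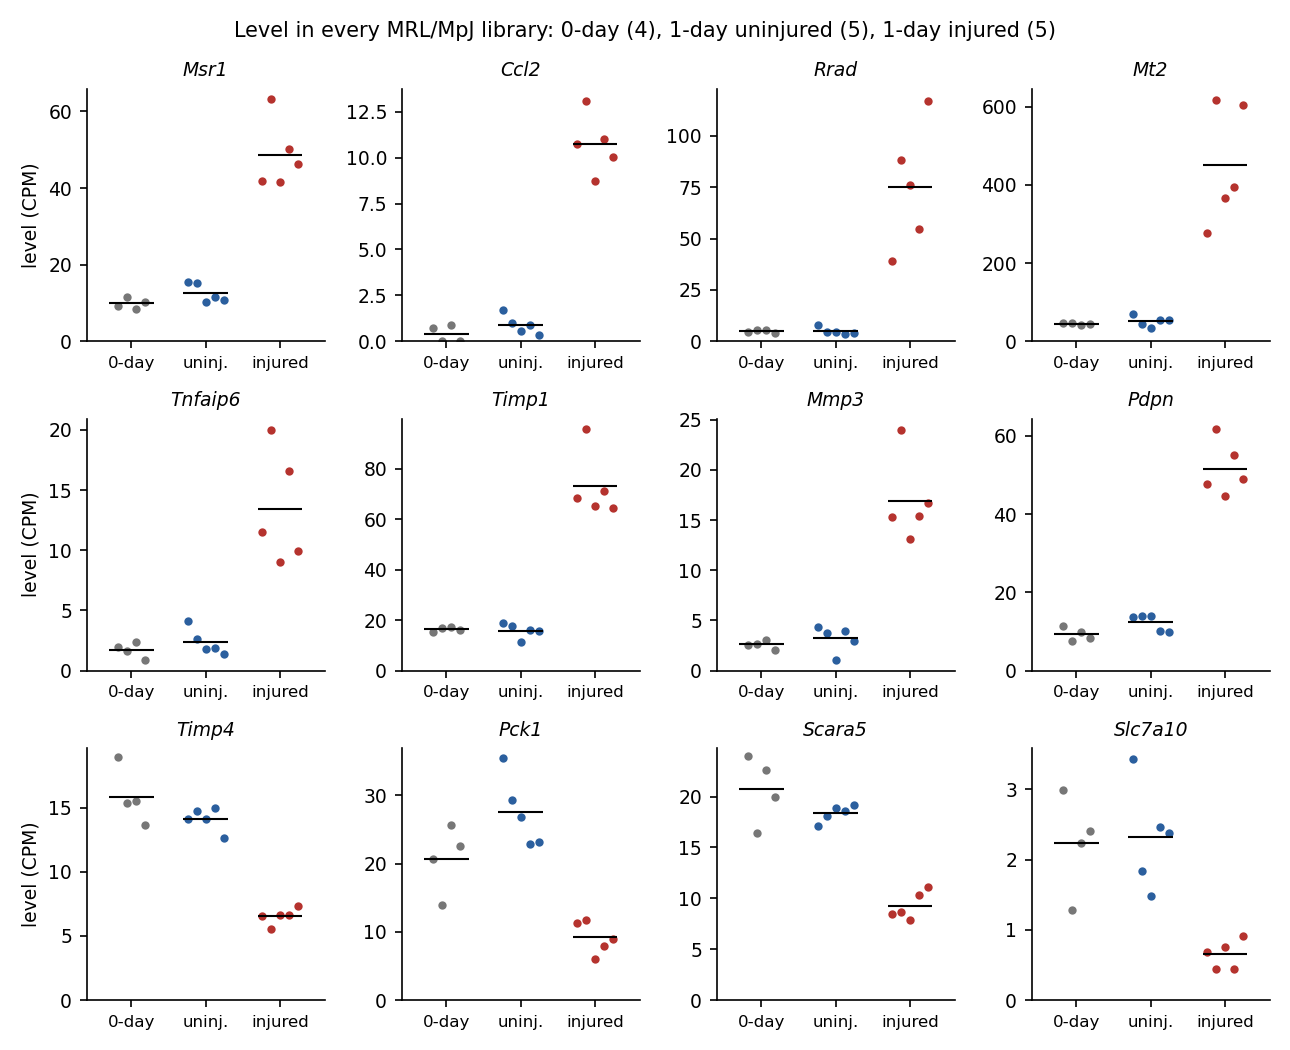
Levels in CPM of 12 genes in every MRL/MpJ library of 0-day (4), 1-day uninjured (5) and 1-day injured (5) joints, with a line at each group mean and each axis starting at 0. In the upper 8 panels each injured library is above all uninjured libraries, and in the lower 4 panels (Timp4, Pck1, Scara5, Slc7a10) each is below them.

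The promoters of 5 up-regulated genes are shown because each holds the motif TGANTCA, the consensus that AP-1 dimers of Fos and Jun proteins bind, in front of its start. Of 12794 genes whose promoter was given by RefSeq, 6.09% held the motif on either strand in the 250 bases before a listed start. It was in 24 of the 185 such genes called higher (13%) and in 1 of the 61 called lower (1.64%). The motif and these genes were chosen after the values were seen, so these shares are a description and no test was made. The 150 bases before each start follow, 5′ to 3′ on the strand of the gene, from the reference assembly GRCm38.p6, which is not MRL/MpJ sequence, with TGANTCA in capitals. The coordinates are chr9:7445672-7445821, plus strand for Mmp3, chr7:4778142-4778291, minus strand for Il11, chr6:122856158-122856307, minus strand for C3ar1, chr2:52037963-52038112, plus strand for Tnfaip6 and chr8:94172468-94172617, plus strand for Mt2. RefSeq lists 2 starts for Il11, and its window lies before the inner one, within the span of the gene.
Mmp3: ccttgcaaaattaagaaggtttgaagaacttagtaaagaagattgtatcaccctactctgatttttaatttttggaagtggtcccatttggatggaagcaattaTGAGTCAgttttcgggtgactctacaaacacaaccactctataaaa
Il11: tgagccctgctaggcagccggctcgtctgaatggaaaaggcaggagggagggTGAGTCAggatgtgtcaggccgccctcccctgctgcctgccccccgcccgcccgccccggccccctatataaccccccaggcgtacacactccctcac
C3ar1: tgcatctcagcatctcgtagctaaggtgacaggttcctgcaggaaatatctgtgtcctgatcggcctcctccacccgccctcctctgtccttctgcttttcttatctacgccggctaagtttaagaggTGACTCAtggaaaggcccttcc
Tnfaip6: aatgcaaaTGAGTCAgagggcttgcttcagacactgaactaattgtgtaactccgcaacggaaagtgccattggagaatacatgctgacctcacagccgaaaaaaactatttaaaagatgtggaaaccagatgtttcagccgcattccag
Mt2: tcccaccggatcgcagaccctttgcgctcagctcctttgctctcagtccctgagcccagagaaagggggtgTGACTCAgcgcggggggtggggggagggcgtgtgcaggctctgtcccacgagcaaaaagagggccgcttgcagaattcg
The first base of the motif lay 46 bases before the start in Mmp3, 98 in Il11, 22 in C3ar1, 142 in Tnfaip6 and 79 in Mt2. A match says only that these letters are present.

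Of 14 measured genes of the IL-6 family and its signalling, 6 were called higher and 0 lower, with a median log2 fold change of 0.571. Beside this and every list below, 1.53% of all genes tested were called higher and 0.497% lower. A single called member in lists of this size is near that background. The ligands Il6, Il11 and Lif were called, all at low levels. Il6, the founding cytokine of the family, had 1.18, 2.03, 0.759, 1.25 and 1.37 CPM in injured and 0.645, 0, 0.425, 0.176 and 0.0819 CPM in uninjured joints, from raw counts of 8 to 23 and 0 to 6 reads (log2 2.36, SE 0.48, adjusted p = 0.00245). Il11, which acts on fibroblasts and chondrocytes, had 3.55, 6.54, 2.47, 5.37 and 2.47 CPM against 0.8597, 0.975, 0.425, 0.616 and 0.327 CPM (log2 2.72, adjusted p = 5.18e-05). Lif, leukaemia inhibitory factor, had 2.74 to 4.598 CPM against 1.301 to 2.37 CPM (log2 1.19, adjusted p = 0.0039). Groups did not overlap for any of these 3 genes. Among the receptors, Osmr, the signalling receptor of oncostatin M, was up-regulated from 17.3, 24.8, 20.3, 21.7 and 18.7 CPM to 31.1, 39.1, 33.1, 36.96 and 42.1 CPM (log2 0.85, adjusted p = 8.41e-06). The ligand Osm itself was at 3.94 to 5.57 CPM in injured and 3.33 to 5.403 CPM in uninjured joints (log2 -0.06, adjusted p = 0.925) and Il6ra at 39.6 to 52.2 CPM and 38.3 to 44.04 CPM (log2 0.19, adjusted p = 0.331), neither called. Downstream, Socs3, the feedback inhibitor that gp130 signalling induces, had 15.6, 25.2, 17.8, 17.5 and 25.98 CPM against 8.27, 5.74, 5.52, 5.804 and 7.12 CPM and was 3.19-fold higher (adjusted p = 1.42e-05). Stat3 and Il6st, which encode the transcription factor and gp130, passed the adjusted p but stayed under the fold threshold, at log2 0.46 (adjusted p = 5.84e-04) and 0.29 (adjusted p = 0.0326).

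Of 17 genes for CC chemokines and their receptors 5 were called higher, 0 lower and 12 were not called (median log2 0.566). Ccl2, the main ligand of CCR2, had 10.8, 13.1, 8.73, 11.01 and 10.1 CPM in injured joints and 1.72, 0.975, 0.531, 0.879 and 0.327 CPM in uninjured joints, a log2 difference of 3.65 (SE 0.38, adjusted p = 1.10e-07). Ccl8, another monocyte attractant, had 1.88, 3.98, 3.701, 2.77 and 2.29 CPM against 0.967, 0.108, 0.531, 0.528 and 0.409 CPM (log2 2.53, adjusted p = 0.0022). Ccr2, the receptor of CCL2 and CCL7 on inflammatory monocytes, was at 146, 193, 182, 172 and 135 CPM against 106, 119, 110.1, 104 and 104 CPM, without overlap but with a log2 fold change of only 0.63 (adjusted p = 5.31e-04), and its log2 value was under the fold threshold without injured replicate 2 (0.55), with 1 or 2 RUVg factors (0.56 and 0.54) and with the fast muscle covariate (0.50). Ccl3 and Ccl5, chemokines of monocytes and T cells, were not called, at log2 -0.29 (adjusted p = 0.595) and -0.10 (adjusted p = 0.88).

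Of 14 genes for CXC chemokines and their receptors 4 were called higher and 0 lower (median log2 0.984). Cxcl14, made by stroma and epithelium, was at 121, 131, 102, 119 and 143 CPM in injured and 51.7, 38.7, 40.1, 42.9 and 44.4 CPM in uninjured joints (2.86-fold, adjusted p = 7.16e-08). Cxcl16, a membrane-bound ligand and scavenger, was at 7.21 to 8.41 CPM against 2.93 to 5.37 CPM (log2 1.06, adjusted p = 2.19e-04). The neutrophil attractants Cxcl1 and Cxcl5 were at 1.58 to 3.54 CPM against 0.164 to 0.4397 CPM (log2 2.87, adjusted p = 0.00106) and 4.27 to 8.05 CPM against 1.23 to 2.47 CPM (log2 1.59, adjusted p = 0.015). The call of Cxcl5 was lost in 4 of 21 alternatives, among them without injured replicate 2 (adjusted p = 0.0759). Their receptor Cxcr2 was at 117 to 152 CPM in injured and 142 to 155 CPM in uninjured joints (log2 -0.11, adjusted p = 0.543).

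None of 13 neutrophil markers was called by edgeR, where 2.02% of all genes were called. All 13 had a log2 fold change below 0 (median -0.1), and their summed level was 14310 to 18820 CPM in injured and 17860 to 18700 CPM in uninjured joints, which include marrow. Of 11 markers of monocytes and macrophages 3 were called higher, and their sum was 2555 to 3257 CPM in injured and 2902 to 3043 CPM in uninjured joints. The called markers were Fcgr1, the high-affinity IgG receptor, at 11.7, 15.8, 13.4, 17.3 and 14.4 CPM against 5.91, 4.44, 4.78, 6.42 and 5.48 CPM (log2 1.44, adjusted p = 4.95e-04), Cd14, the co-receptor for bacterial lipopolysaccharide (log2 0.92, adjusted p = 1.08e-04), and Ccr2. Cd68, a lysosomal protein of macrophages, was at 62.5 to 72.7 CPM against 43.8 to 59.3 CPM, separated but under the fold threshold (log2 0.37, adjusted p = 0.00255). Lyz2, a lysozyme gene of myeloid cells, differed by log2 -0.07 (adjusted p = 0.785), and Adgre1, the macrophage antigen F4/80, by log2 0.30 (adjusted p = 0.0896). None of the 9 T cell and 8 B cell markers measured was called, which at 2.02% of all genes called is near the background.

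Of 23 genes for Toll-like receptors and scavenger or alternative activation markers of macrophages, 4 were called higher and 0 lower (median log2 0.181). Trem2, a lipid receptor of macrophages, had 7.41 to 10.6 CPM against 3.47 to 6.45 CPM (log2 0.93, adjusted p = 8.41e-04). Msr1 and Cd14 were also called. Of 17 complement genes C3ar1 and Cfb were called, and Cfb, complement factor B, was at 36.1 to 46.03 CPM against 22.6 to 28.4 CPM (log2 0.74, adjusted p = 0.00255). Il4ra, the receptor subunit shared by IL-4 and IL-13, was at 39.2, 56.5, 42.04, 46.3 and 45.2 CPM against 19.99, 17.2, 16.5, 14.2 and 16.1 CPM (2.77-fold, adjusted p = 3.57e-07).

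The IL-1 and TNF group gave 4 called genes of 22 (median log2 0.187), and none was one of the founding cytokines. Il1b, which encodes IL-1β, was at 15.2, 20.9, 16.1, 16.5 and 14.1 CPM in injured and 15.5, 22.5, 17.9, 14.1 and 14.1 CPM in uninjured joints, and Tnf at 3.95, 3.63, 4.93, 3.85 and 3.201 CPM and 3.98, 4.34, 2.87, 2.99 and 3.44 CPM. The groups overlapped for both genes, with log2 differences of 0.004 (SE 0.14, adjusted p = 0.996) and 0.17 (SE 0.18, adjusted p = 0.729). Tnfaip6, which encodes the hyaluronan-binding protein TSG-6, was up-regulated from 4.08, 2.601, 1.81, 1.85 and 1.39 CPM to 11.6, 19.98, 9.02, 16.6 and 9.97 CPM (5.92-fold, adjusted p = 5.07e-07). Tnfrsf12a, the receptor of TWEAK, was at 12.5 to 23.5 CPM against 6.24 to 10.1 CPM (log2 1.20, adjusted p = 1.43e-04), and Il33, an alarmin of stromal nuclei, at 11.7 to 16.4 CPM against 4.397 to 8.27 CPM (log2 1.13, adjusted p = 0.011). Csf1, the growth factor of macrophages, was at 63.5 to 72.8 CPM against 35.4 to 46.5 CPM (log2 0.71, adjusted p = 2.98e-06). Of 19 genes of prostaglandin and leukotriene synthesis, 1 was called, which is near the background with 1.53% of all genes called higher. This was Ptgs2, the inducible cyclooxygenase COX-2, with 3.75, 4.69, 3.13, 3.04 and 3.57 CPM against 0.752, 0.975, 0.531, 0.704 and 0.737 CPM (log2 2.30, SE 0.35, adjusted p = 5.64e-05).

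Of 14 acute phase and metal-handling genes 6 were called higher and 0 lower (median log2 0.501). Beside Mt1 and Mt2, Slc39a14, the zinc and iron importer ZIP14, was at 62.99, 93.5, 62.3, 71.2 and 67.9 CPM against 29.98, 24.5, 19.8, 24.01 and 26.1 CPM (2.92-fold, adjusted p = 1.20e-06). Serpina3n, a secreted serine protease inhibitor, was at 54.9, 91.1, 59.2, 55.7 and 72.8 CPM against 24.1, 28.1, 17.3, 24.6 and 19.6 CPM (2.98-fold, adjusted p = 5.18e-05). These 2 genes were separated between the groups. Cebpb, a transcription factor of the acute phase response, overlapped (log2 0.63, adjusted p = 0.0192), and leaving out 1 of 5 libraries, among them injured replicate 5, or adding the fast muscle covariate ended its call (adjusted p up to 0.0806 over all alternatives). Against the 0-day joints, at 9.14 to 11.98 CPM, its log2 fold change was 1.37 (adjusted p = 1.06e-05). Saa3, serum amyloid A3, rested on 5 to 31 reads per injured and 0 to 6 per uninjured library (log2 2.9996, SE 0.85, adjusted p = 0.0363), and its call was lost in 7 of 21 alternatives, among them without injured replicate 2 (adjusted p = 0.117) and with a replicate block (adjusted p = 0.0788). Lcn2, lipocalin 2, was at 702 to 956 CPM and 899 to 981 CPM and was not called (log2 -0.09, adjusted p = 0.692).

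Of 18 measured metalloproteinase and inhibitor genes 3 were higher and 1 was lower (median log2 0.131). Mmp3, stromelysin 1, had 15.3, 23.96, 13.1, 15.4 and 16.6 CPM against 4.298, 3.79, 1.06, 3.96 and 2.95 CPM (5.31-fold, adjusted p = 2.44e-06), and Mmp19 had 15.1, 25.02, 15.4, 18.9 and 17.4 CPM against 9.78, 8.13, 7.22, 6.95 and 7.86 CPM (2.34-fold, adjusted p = 1.88e-06). The inhibitors went in opposite directions, with Timp1 higher as given above and Timp4 lower as given below. Mmp13, the main collagenase of cartilage and bone in the mouse, was at 340.4 to 454 CPM and 265 to 424 CPM (log2 0.18, adjusted p = 0.682). Of 29 ADAM and ADAMTS genes 7 were higher and 0 lower (median log2 0.282). The aggrecanase Adamts4 had 6.81, 9.99, 7.21, 7.697 and 7.41 CPM against 2.901, 1.52, 2.12, 2.11 and 2.62 CPM (3.49-fold, adjusted p = 2.95e-06), while Adamts5, the other main aggrecanase, was at 54.2 to 58.97 CPM and 43.2 to 50.7 CPM, separated but not called (log2 0.28, adjusted p = 0.0506). Adamtsl2 and Adamtsl3, which lack a protease domain and bind the microfibrils of the matrix, were called at log2 1.48 (adjusted p = 1.27e-04) and 0.83 (adjusted p = 8.54e-04). Adam12 had a log2 fold change of 0.66 (adjusted p = 8.99e-04; log2 0.56 and under the fold threshold with the fast muscle covariate), and Adamts1 one of 0.66 (adjusted p = 0.00752), which was 0.57 without injured replicate 2 and then under the fold threshold. Of 16 plasminogen and coagulation genes 3 were called higher, among them Plau and Plat. Plau, the urokinase activator, was at 39.1, 47.7, 37.7, 42.9 and 38.4 CPM against 22.6, 17.99, 22.7, 22.5 and 22.8 CPM (log2 0.94, adjusted p = 2.24e-06), and Plat, the tissue activator, had a log2 fold change of 0.79 (adjusted p = 0.0134, and 0.0541 without injured replicate 2).

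Of 23 fibrillar collagen and crosslinking genes 6 were higher and 0 lower, and all 23 had a log2 fold change above 0 (median 0.437). Lox, lysyl oxidase, which starts the crosslinking of collagen, was at 139, 179.9, 113, 146 and 141 CPM against 75.97, 67.4, 55.5, 72.99 and 66.4 CPM (2.15-fold, adjusted p = 1.23e-06). P4ha3, a subunit of prolyl hydroxylase, was at 10.3 to 15.1 CPM against 4.25 to 6.42 CPM (log2 1.25, adjusted p = 0.00349) and Loxl1 at 24.2 to 34.9 CPM against 15.2 to 21.3 CPM (log2 0.71, adjusted p = 0.00276). Col6a3, a chain of the microfibrillar collagen VI, was at 263, 331, 219, 245 and 218 CPM against 138, 150.1, 130.00, 151 and 133 CPM (log2 0.88, adjusted p = 7.84e-05). Col5a3 had a log2 fold change of 0.69 (adjusted p = 0.00132), 0.57 without injured replicate 2 and 0.13 (adjusted p = 0.551) against the 0-day joints, which were at 30.2 to 38.8 CPM. Col3a1, the collagen of early repair tissue, was at 1606, 2007, 1266, 1436 and 1529.5 CPM against 1050.1, 1058, 889.96, 950.00 and 872 CPM (log2 0.72, adjusted p = 0.0105), and without injured replicate 2 its adjusted p was 0.066. Col1a1 and Col1a2, the chains of collagen I, overlapped between the groups and were not called, at log2 0.29 (adjusted p = 0.311) and 0.22 (adjusted p = 0.457).

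Of 13 hyaluronan and lubricin genes 5 were higher and 0 lower (median log2 0.36). The summed levels of the 8 synovial fibroblast markers, of which Prg4 was the most abundant, were 2563 to 4367 CPM in injured and 1649 to 2553 CPM in uninjured joints, and those of the 7 tendon and ligament markers 740 to 1199 CPM and 525.1 to 662.7 CPM. Each sum was set apart by 1 gene. Without Prg4 the other 7 synovial fibroblast markers summed to 294.1 to 357.7 CPM in injured and 325.1 to 372.4 CPM in uninjured joints, and without Thbs4 the other 6 tendon and ligament markers to 184.4 to 324.5 CPM and 210.5 to 270.8 CPM, both overlapping. Their part in the changes of hyaluronan, collagen and other matrix genes was not tested. Has1 and Has2, the hyaluronan synthases of synovium, were at 3.66 to 7.78 CPM against 1.31 to 3.01 CPM (log2 1.61, adjusted p = 0.00378) and 9.88 to 18.6 CPM against 5.84 to 7.74 CPM (log2 1.09, adjusted p = 3.42e-04). Vcan, versican, a proteoglycan that binds hyaluronan, was at 102, 154, 106, 111 and 86.4 CPM against 56.4, 70.5, 40.4, 61.9 and 46.1 CPM (log2 1.04, adjusted p = 1.98e-04). Prg4, lubricin, the lubricant made by the surface cells of synovium and cartilage, was at 3069.8, 4042, 2269, 3199.5 and 2897 CPM in injured and 1878, 2182, 1292, 1941 and 1793 CPM in uninjured joints, with no overlap (log2 0.79, adjusted p = 0.00163). At 0-day Prg4 was at 1318, 975, 1234 and 961 CPM, and 4 of the 5 uninjured 1-day joints lay above that range. Stab1, which encodes stabilin 1, had a log2 fold change of 0.77 (adjusted p = 2.19e-04).

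Of 20 matricellular and fibroblast activation genes 4 were higher and 1 lower (median log2 0.243). Thbs4, thrombospondin 4, a gene of tendon and stressed muscle, was at 643, 741, 556, 631 and 874 CPM against 392, 367, 326, 330.5 and 315 CPM (log2 1.01, adjusted p = 1.64e-04). Postn, periostin, was at 420.1, 409, 387, 368 and 391 CPM against 265, 259, 262, 258 and 250.2 CPM (log2 0.63, adjusted p = 6.54e-04), and Wisp2 had a log2 fold change of 0.79 (adjusted p = 0.00699). Nov, also known as CCN3, was lower, at 8.79, 6.99, 4.65, 8.23 and 11.2 CPM against 17.7, 12.03, 11.5, 15.04 and 17.4 CPM (log2 -0.87, adjusted p = 0.00942). Scx, the transcription factor of tendon cells, had a log2 fold change of 0.83 (adjusted p = 0.0134) and overlapping groups, and without injured replicate 2 its adjusted p was 0.0656.

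Of 18 cartilage matrix genes 0 were called by edgeR in either direction (median log2 0.172), where 2.02% of all genes were called, so that 0 of 18 is near the background. Acan, aggrecan, was at 238, 254, 152, 243 and 185 CPM in injured and 214, 142, 123, 240.2 and 248 CPM in uninjured joints (log2 0.17, SE 0.22, adjusted p = 0.813), and Col2a1, the collagen of cartilage, at 1479, 1269.8, 887, 1659 and 1170.4 CPM and 1106, 772, 675, 1579 and 1599 CPM (log2 0.19, SE 0.27, adjusted p = 0.823). The lowest and highest joint of one group lay far apart for both genes, so small changes were not detectable here.

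**Figure D3:**
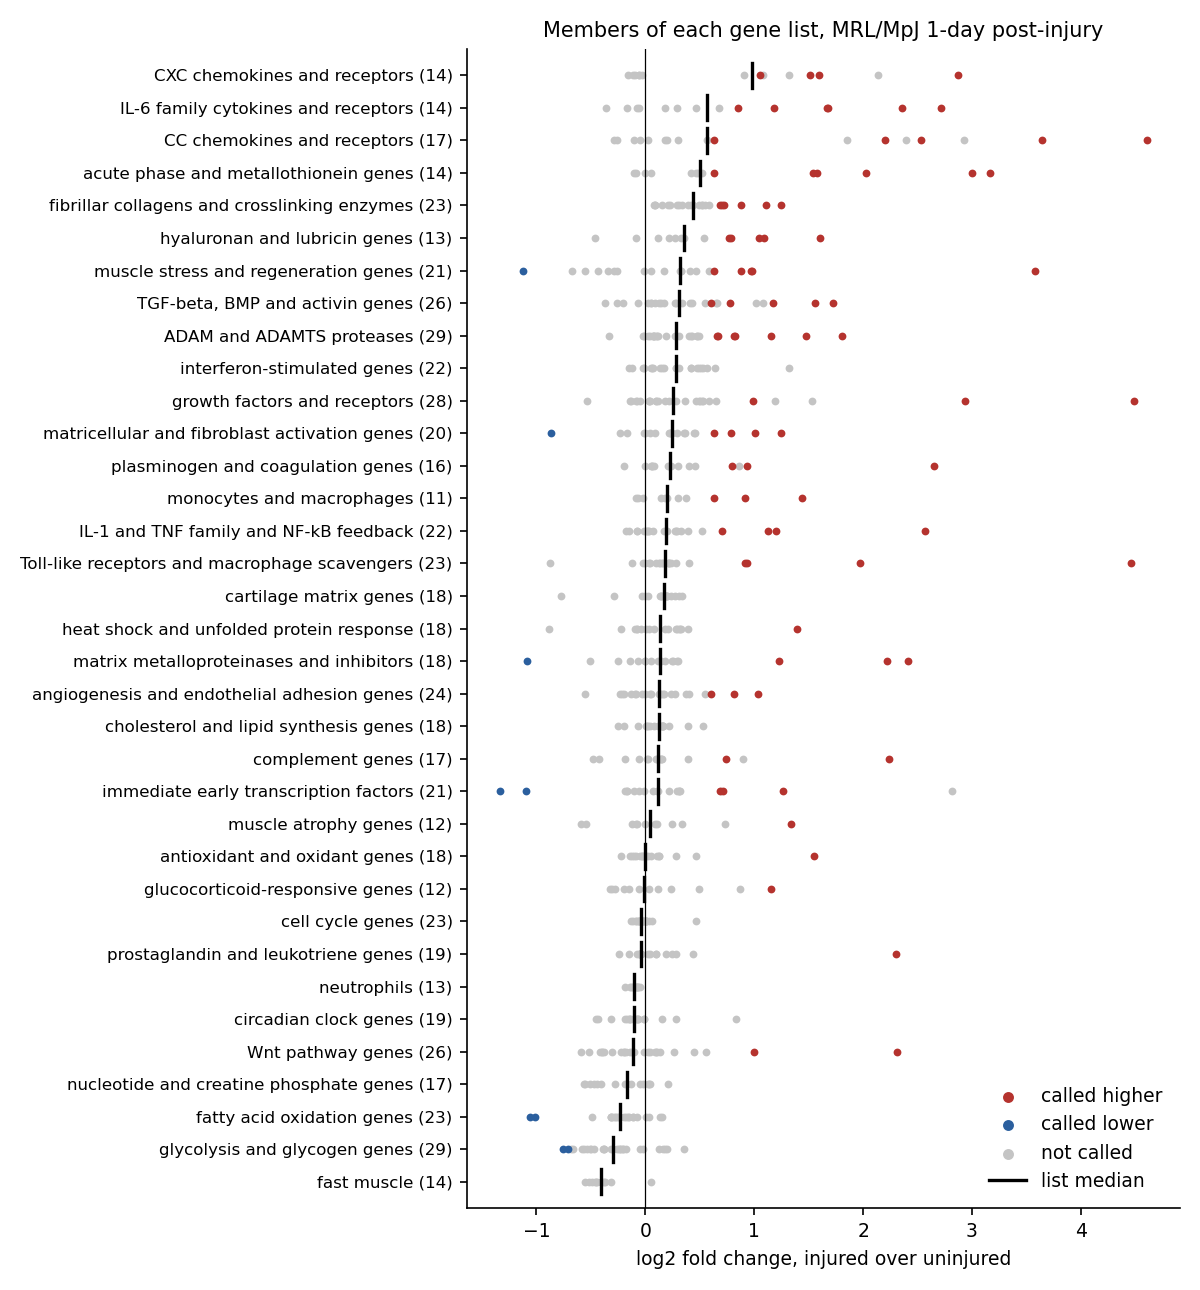
Log2 fold change (injured over uninjured contralateral, MRL/MpJ, 1-day post-injury) of every measured member of each gene list, 1 point per gene, with the number of measured genes in brackets and a bar at the list median. Red points are called higher, blue points called lower and grey points not called, and of the lists drawn the CXC chemokine list has the highest median (0.984) and the fast muscle list the lowest (-0.407).

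Of 28 measured growth factor and receptor genes 3 were higher and 0 lower (median log2 0.251). Ereg, epiregulin, a ligand of the EGF receptor, had 1.48, 3.802, 3.701, 1.61 and 2.195 CPM against 0.4298, 0.542, 0.212, 0.264 and 0.246 CPM (log2 2.93, adjusted p = 2.68e-05). Areg, amphiregulin, another ligand of that receptor, had 3, 3, 3, 3 and 1 reads in the injured libraries and 0 reads in all 5 uninjured libraries, so no fold is given, and its call was lost in 15 of 20 alternatives. Fgf2, a mitogen of fibroblasts, had a log2 fold change of 0.99 (adjusted p = 0.0366). Its call was lost in 10 of 21 alternatives, among them with a replicate block and without injured replicate 2 (adjusted p = 0.0501). Of 26 TGF-β, BMP and activin genes 5 were higher and 0 lower (median log2 0.31). Ltbp2, a latent TGF-β binding protein of elastic fibres, was at 32.8, 42.1, 27.5, 35.7 and 30.3 CPM against 13.8, 10.1, 7.86, 10.6 and 9.58 CPM (3.297-fold, adjusted p = 5.25e-08). Inhba, the subunit of activin A, was at 33.6 to 59.1 CPM against 17.2 to 20.3 CPM (log2 1.18, adjusted p = 7.66e-05). Antagonists of this pathway rose too, with Nog, the BMP inhibitor noggin, at 4.25, 6.01, 5.504, 6.09 and 10.3 CPM against 2.79, 2.601, 1.27, 2.02 and 2.37 CPM (log2 1.56, adjusted p = 1.74e-04). Fst, the activin inhibitor follistatin, had a log2 fold change of 0.60 (adjusted p = 0.00149), close to the fold threshold and below it in 8 of 21 alternatives, among them without injured replicate 2 (0.58). Fstl1, a secreted glycoprotein related to follistatin, was at 350.4 to 451 CPM against 217 to 247 CPM (log2 0.78, adjusted p = 2.65e-04).

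Of 26 Wnt pathway genes 2 were higher and 0 lower (median log2 -0.111), where 1.53% of all genes were called higher. Sfrp1, a secreted Wnt inhibitor, was at 29.8, 32.4, 27.2, 27.4 and 29.5 CPM against 14.1, 13.1, 15.7, 16.2 and 15.2 CPM (log2 0.99, adjusted p = 0.0062). Wnt2 rested on 5 to 7 reads per injured and 0 to 2 reads per uninjured library (log2 2.31, SE 0.65, adjusted p = 0.0342), and its call was lost in 8 of 20 alternatives (adjusted p = 0.0931 without injured replicate 2). Of 24 angiogenesis and endothelial adhesion genes 3 were higher and 0 lower (median log2 0.129). Hif1a, the oxygen-regulated transcription factor, was at 138 to 178 CPM against 91.8 to 104 CPM (log2 0.61, adjusted p = 2.06e-04), and at 0.53 without injured replicate 2. Apln, the peptide apelin, and Adm, the vasodilator adrenomedullin, had log2 fold changes of 1.03 (adjusted p = 0.0346) and 0.81 (adjusted p = 0.0215), with adjusted p of 0.0724 and 0.0866 without injured replicate 2. The call of Apln was lost in 9 of 21 alternatives, 8 of them a library left out, and that of Adm in 5 of 21. Vegfa, the main endothelial growth factor, was at 115, 123, 114, 114 and 128 CPM in injured and 191, 217, 185, 143 and 148 CPM in uninjured joints. Every injured joint was below every control joint, but the fold was under the threshold (log2 -0.55, adjusted p = 0.0015). Vegfa was called lower in 4 of 21 alternatives, against the 0-day joints (log2 -0.65) and without injured replicate 5 or uninjured replicate 4 or 5.

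Of 21 measured muscle stress and regeneration genes 5 were higher and 1 lower (median log2 0.322). Ankrd1 (chr19:36111965-36119844), an ankyrin repeat protein of the sarcomere that stretch induces, was at 151, 525, 305, 284 and 571 CPM in injured and 47.3, 44.98, 27.1, 18.6 and 19.2 CPM in uninjured joints (11.9-fold, SE 0.40 on the log2 scale, adjusted p = 3.41e-07), with no overlap and 20.5 to 24.1 CPM at 0-day. The study named Ankrd1 on these samples, so it is not independent evidence of a direction. Chrna1, the acetylcholine receptor subunit, was at 7.52 to 13.8 CPM against 3.76 to 7.26 CPM (log2 0.97, adjusted p = 0.00586), and Cdkn1a, the cell cycle inhibitor p21, had a log2 fold change of 0.63 (adjusted p = 5.78e-05). The Cdkn1a value was under the fold threshold against the 0-day joints (0.46), without injured replicate 5 (0.55) and without uninjured replicate 3 (0.57). Flnc, filamin C, which repairs sarcomere lesions, was at 379, 732, 443, 439 and 807 CPM against 300.4, 381, 281, 229 and 252 CPM with overlapping groups (log2 0.98, adjusted p = 0.0427), and Mustn1 was at 114 to 230.5 CPM against 70.6 to 101 CPM (log2 0.88, adjusted p = 0.032). Both calls were lost without injured replicate 2 (adjusted p of 0.156 and 0.0965) and without injured replicate 5 or uninjured replicate 1, 3, 4 or 5. Of 12 atrophy genes Trim63, the ubiquitin ligase MuRF1, was called, at 131, 261, 181, 199.6 and 454 CPM against 99.5, 119, 106, 79.8 and 87.3 CPM (log2 1.34, adjusted p = 0.00144). Its partner ligase Fbxo32, atrogin-1, was at 310.02, 486, 361, 371 and 827 CPM against 270.1, 275, 339.6, 275 and 274 CPM and was not called (log2 0.74, adjusted p = 0.0907), but was called in 5 of 21 alternatives, with 1 or 2 RUVg factors, in the 10 MRL/MpJ libraries alone, against the 0-day joints and with the fast muscle covariate. Of 18 heat shock and unfolded protein genes only Hspb1, the small heat shock protein HSP27, was called, at 50.9, 97.7, 58.8, 63.8 and 122 CPM against 35.5, 41.5, 24.5, 29.5 and 21.9 CPM (log2 1.39, adjusted p = 0.00414). With 1.53% of all genes called higher, 1 of 18 is near the background. Injured replicate 5, the injured library with the most fast muscle RNA, was the highest joint for Ankrd1, Rrad, Chrna1, Flnc, Mustn1, Trim63, Fbxo32 and Hspb1. Its summed fast muscle level was 105300 CPM, and that of uninjured replicate 3 was 110000 CPM. With the fast muscle level as a covariate, described below, the called genes among them kept their calls.

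Of 21 immediate early transcription factors 3 were higher and 2 lower (median log2 0.114). Junb, a member of AP-1, was at 26.8, 33.2, 29.2, 36.3 and 43.3 CPM against 11.7, 15.7, 10.5, 16.4 and 16.6 CPM (log2 1.26, adjusted p = 0.00414), Maff, a small Maf protein, had a log2 fold change of 0.71 (adjusted p = 0.00461) and Ier3 one of 0.68 (adjusted p = 0.038, and 0.12 without injured replicate 2), whose call was lost in 9 of 21 alternatives. The orphan receptor Nr4a1 was lower, at 33.5, 38.6, 27.4, 33.7 and 41.8 CPM against 72.5, 100.5, 70.6, 64.9 and 69.8 CPM (log2 -1.09, adjusted p = 0.0145), and so was Nr4a3, at 3.16, 8.75, 5.31, 5.101 and 7.04 CPM against 11.9, 28.2, 15.7, 8.53 and 11.8 CPM (log2 -1.34, adjusted p = 0.0104). Uninjured replicate 2 held the highest level of both, and without it neither was called (adjusted p of 0.0548 and 0.0725). Nr4a3 was also not called against the 0-day joints, at 3.72 to 13.1 CPM (log2 -0.32, adjusted p = 0.675), with 2 RUVg factors (adjusted p = 0.0613) or with the fast muscle covariate (adjusted p = 0.0741). Fos was at 16.2, 16.2, 16.04, 18.8 and 16.6 CPM in injured and 12.7, 8.89, 7.97, 13.2 and 9.41 CPM in uninjured joints, separated but not called in the fit of all 30 1-day libraries (log2 0.70, SE 0.68, adjusted p = 0.71), and called in a fit of the 10 MRL/MpJ libraries alone. Egr1, a zinc finger factor of the same early class, was at 18.7, 19.7, 14.99, 20.7 and 17.5 CPM against 13.4, 15.4, 13.6, 17.8 and 14.5 CPM and was not called (log2 0.31, adjusted p = 0.853). Its direction was the opposite against the 0-day joints, at 26.7 to 28.9 CPM (log2 -0.58, adjusted p = 3.28e-04), where the fold was just under the threshold. Of 18 antioxidant and oxidant genes 1 was called, Sod3, extracellular superoxide dismutase, at 173, 199, 137, 167 and 173 CPM against 64.2, 66.7, 44.2, 65.5 and 52.8 CPM (2.93-fold, adjusted p = 2.95e-07). Angptl4, a secreted inhibitor of lipoprotein lipase, was the 1 called gene of 12 glucocorticoid-responsive genes, at 44.8, 53.8, 38.6, 46.5 and 40.98 CPM against 25.04, 20.4, 17.3, 20.1 and 19.9 CPM (2.22-fold, adjusted p = 2.24e-04). With 1.53% of all genes called higher, 1 of 18 antioxidant and 1 of 12 glucocorticoid-responsive genes are near the background.

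The 8 genes with the smallest adjusted p among those down-regulated are described in turn. Timp4 (chr6:115244444-115252205), a metalloproteinase inhibitor of muscle, fat and heart, was at 6.52, 5.57, 6.64, 6.62 and 7.32 CPM in injured and 14.1, 14.7, 14.1, 14.9 and 12.6 CPM in uninjured joints (2.13-fold lower, log2 -1.09, SE 0.14, adjusted p = 6.39e-06). Pck1 (chr2:173153073-173159274), the PEP carboxykinase of gluconeogenesis and of glycerol synthesis in fat, was at 11.4, 11.7, 5.98, 7.97 and 8.96 CPM against 35.5, 29.3, 26.8, 22.9 and 23.2 CPM (2.95-fold lower, adjusted p = 4.22e-05). Rbp7 (chr4:149449687-149466462), a retinol-binding protein of fat and its vessels, was at 4.74, 3.36, 2.18, 3.94 and 4.02 CPM against 8.597, 11.5, 8.92, 7.47 and 8.19 CPM (2.41-fold lower, adjusted p = 7.47e-05). No injured joint reached the lowest control joint for any of the 3 genes. Slc7a10 (chr7:35186095-35201116), an amino acid transporter of adipocytes, and Ntrk3 (chr7:78179986-78581034), the receptor of neurotrophin 3, were low-level genes. Slc7a10 fell from 3.44, 1.84, 1.49, 2.46 and 2.37 CPM to 0.691, 0.442, 0.759, 0.448 and 0.915 CPM (adjusted p = 6.18e-04) and Ntrk3 from 1.93, 2.71, 2.55, 2.199 and 2.13 CPM to 0.691, 0.442, 0.759, 0.626 and 0.915 CPM (adjusted p = 1.04e-04). Scara5 (chr14:65666403-65764826), a ferritin receptor of stromal cells, was at 8.49, 8.66, 7.88, 10.3 and 11.1 CPM against 17.1, 18.1, 18.9, 18.6 and 19.2 CPM (1.95-fold lower, adjusted p = 3.39e-04). Smox (chr2:131491858-131525183), spermine oxidase, was at 108, 92.04, 97.8, 99.3 and 92.6 CPM against 188, 180.4, 186, 133 and 141 CPM (log2 -0.74, adjusted p = 4.95e-04), and Pptc7 (chr5:122284398-122324281), a mitochondrial phosphatase, at 108, 93.99, 95.8, 90.5 and 113 CPM against 172, 170.4, 164, 129 and 140.5 CPM (log2 -0.61, adjusted p = 2.24e-04). Groups were separated for all 8 genes, and Pptc7, close to the fold threshold, was under it in 7 of 21 alternatives, among them without injured replicate 4.

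Of 29 glycolysis and glycogen genes 2 were lower and 0 higher, and 24 of the 29 had a log2 fold change below 0 (median -0.292), where 0.497% of all genes were called lower. Pfkfb1, which sets the level of fructose 2,6-bisphosphate, was at 14.9, 9.46, 12.1, 10.2 and 13.3 CPM against 23.5, 22.7, 20.1, 18.5 and 17.7 CPM (log2 -0.75, adjusted p = 0.0126). Pgam2, the phosphoglycerate mutase of muscle, was at 664, 508, 511, 508 and 739.8 CPM against 1091, 1063, 1096, 800.1 and 792 CPM (log2 -0.71, adjusted p = 0.0497). Without injured replicate 2 these adjusted p were 0.055 and 0.138, and the call of Pgam2 was lost in 13 of 21 alternatives, among them DESeq2, housekeeping scaling, both RUVg fits and the replicate block (adjusted p = 0.0678). Of 23 fatty acid oxidation genes 2 were lower and 0 higher (median log2 -0.232), again beside 0.497% of all genes. Ppargc1a, the coactivator PGC-1α that drives mitochondrial biogenesis, was at 21.9, 17.9, 20.7, 16.5 and 23.4 CPM against 37.7, 56.8, 44.9, 39.2 and 33.6 CPM (log2 -1.06, adjusted p = 0.00126), and Ppara, the fatty acid receptor it works with, at 3.75, 3.09, 3.99, 2.33 and 5.305 CPM against 7.2, 10.2, 7.01, 5.101 and 8.35 CPM, where 1 injured and 1 uninjured joint overlapped (log2 -1.01, adjusted p = 0.00351). Csrp3, the muscle LIM protein of the sarcomere, was at 50.1, 46.5, 40.9, 34.5 and 32.4 CPM against 92.3, 133, 82, 74.2 and 68.8 CPM (log2 -1.12, adjusted p = 0.00625). Against the 0-day joints, at 42.2 to 72.4 CPM, it was not called (log2 -0.46, adjusted p = 0.113). Of 17 nucleotide and creatine phosphate genes 0 were called by edgeR (median log2 -0.171), where 2.02% of all genes were called.

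Fast muscle RNA was also lower in 4 of the 5 injured joints. The 14 fast muscle markers had a median log2 fold change of -0.407 and 0 of them was called, which is near the background with 2.02% of all genes called. Their sum was 72490, 67390, 59470, 59660 and 105300 CPM in the injured joints and 102400, 104700, 110000, 84410 and 88760 CPM in the uninjured joints. These 4 joints were below all control joints, and injured replicate 5 lay within the control range, while its Csrp3 and Ppargc1a levels were below those of all control joints. Myh4, the myosin of fast fibres, was at 19940.00, 19965, 17134, 16924 and 32771 CPM against 31341, 30782, 35014, 26190.00 and 28209 CPM (log2 -0.49, adjusted p = 0.301). It was called lower against the 0-day joints, at 31649 to 37713 CPM (log2 -0.70, adjusted p = 0.0045). With the log2 fast muscle sum as a covariate, chosen after seeing the data, 43 genes were called lower in place of 86, 38 of them shared, and 306 higher in place of 264, 229 of them shared. Pfkfb1, Pgam2 and Pptc7 were under the fold threshold with the covariate and not called, while Timp4, Pck1, Rbp7, Ntrk3, Scara5, Smox, Slc7a10, Csrp3, Ppargc1a and Ppara were called. The covariate came from the same counts and was itself lower in 4 of the 5 injured joints. The part of muscle content in these changes was not tested. White fat markers gave 0 called of 9 (median log2 -0.29), also near the background of 2.02%, with sums of 507.6 to 586.6 CPM in injured and 553.7 to 729.5 CPM in uninjured joints. Of 5 brown fat markers Cidea, a lipid droplet protein, was called lower, at 0.537 to 1.24 CPM against 1.67 to 3.58 CPM (log2 -1.50, adjusted p = 0.0264, and up to 0.0917 over all alternatives). The call of Cidea was lost in 6 of 21 alternatives, among them the fast muscle covariate and the 0-day joints as control. Htra4, a serine protease listed with synovial fibroblasts, was lower, at 7.21, 4.51, 3.61, 7.43 and 5.95 CPM against 18.2, 21.03, 10.9, 19.1 and 14.2 CPM (log2 -1.52, adjusted p = 0.0015). Of the 8 markers on that list 4 were above 0 and 4 below, with Prg4 called higher and Htra4 lower.

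**Figure D4:**
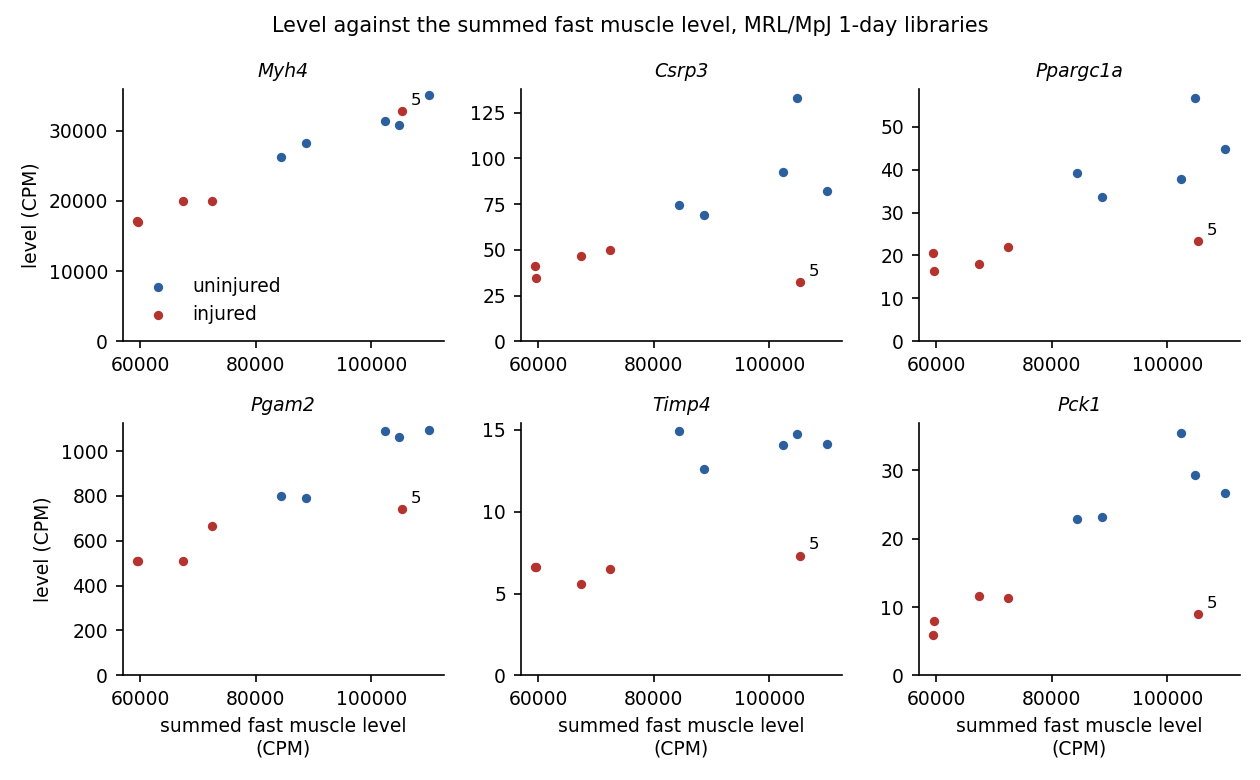
Levels in CPM of Myh4, Csrp3, Ppargc1a, Pgam2, Timp4 and Pck1 against the summed level of the 14 fast muscle markers (CPM), 1 point per MRL/MpJ 1-day library, red for injured and blue for uninjured joints, with injured replicate 5 numbered. For Myh4 the injured replicate 5 lies among the uninjured joints (32770 CPM), while for Timp4 and Pck1 it lies with the other injured joints.

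The same contrast in the other strains was used to ask where the MRL/MpJ response differed. In C57BL/6 mice 738 genes were higher (4.26% of the genes tested) and 232 lower (1.34%) at 1-day, 5.6% in all. In STR/ort mice 279 genes were higher (1.61%) and 467 lower (2.7%), 4.31% in all. Of the 264 genes higher in MRL/MpJ, 203 were called higher in C57BL/6, which is 76.9% of the MRL/MpJ genes and 27.5% of those of C57BL/6, and 152 in STR/ort, 57.6% and 54.5%. Of the 86 lower genes 38 were called lower in C57BL/6 (44.2% and 16.4%) and 65 in STR/ort (75.6% and 13.9%). All 3 strains shared 133 higher and 33 lower genes. A further 42 higher and 16 lower genes were called in MRL/MpJ and in neither other strain, but the test of the difference passed for few of them. Among the 42 it was called for 1 gene against C57BL/6 and for 1 against STR/ort, and among the 16 for 1 against C57BL/6 and 0 against STR/ort.

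The difference between strains was tested as an interaction, the injury change of MRL/MpJ minus that of the other strain. Against C57BL/6, 6 genes had a higher change in MRL/MpJ (0.0347% of the genes tested) and 49 a lower one (0.283%). The lower ones included matrix and macrophage genes. Postn changed by log2 0.63 in MRL/MpJ and 1.86 in C57BL/6 (difference -1.23, SE 0.16, adjusted p = 2.46e-04), Col3a1 by 0.72 and 1.88 (difference -1.16, SE 0.24, adjusted p = 0.0242), and Has2 by 1.09 and 2.29 (difference -1.20, adjusted p = 0.0305). Trem2 changed by 0.93 and 2.03 (difference -1.10, adjusted p = 0.0242) and Adgre1 by 0.30 and 0.94 (difference -0.63, adjusted p = 0.0339). Lrrc17, a secreted leucine-rich repeat protein, and Phldb2, a protein of cell adhesion sites, changed by 0.23 and 0.07 in MRL/MpJ and by 1.59 and 0.92 in C57BL/6 (adjusted p = 7.43e-04 and 7.43e-04). Angptl1 turned in opposite directions, at log2 -0.85 in MRL/MpJ, from 13.5, 13.7, 15.5, 10.6 and 10.1 CPM to 6.32, 8.58, 4.75, 6.26 and 8.32 CPM, and 1.15 in C57BL/6 (adjusted p of the difference 9.18e-04). Its call in MRL/MpJ alone was lost in 10 of 21 alternatives.

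The genes with a higher change in MRL/MpJ than in C57BL/6 included the fatty acid synthesis genes Fasn and Acaca. Neither was called in MRL/MpJ, at log2 0.01 and 0.03, and their differences from C57BL/6, at -1.33 and -0.65, were 1.34 (adjusted p = 0.0085) and 0.68 (adjusted p = 0.0267). Hal, histidine ammonia-lyase, was up-regulated in MRL/MpJ, at 38.5, 46.8, 28.8, 31.1 and 35.3 CPM against 21.3, 19.5, 19.8, 16.7 and 18.2 CPM (log2 0.94), and was at -0.46 in C57BL/6 (difference 1.40, adjusted p = 0.0242) and 2.03 in STR/ort (difference -1.09, adjusted p = 0.0304), so that MRL/MpJ lay between the other strains. Adamtsl2 was at 1.48 in MRL/MpJ and -0.05 in C57BL/6 (difference 1.53, adjusted p = 0.0243). BE949265 had few reads in MRL/MpJ, at 0.537 to 1.83 CPM in injured and 0.655 to 1.19 CPM in uninjured joints (log2 0.31). Its log2 fold change was -4.06 in C57BL/6, and the difference of 4.37 had an SE of 1.02 (adjusted p = 0.0479).

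Against STR/ort, 24 genes had a higher change in MRL/MpJ (0.139%) and 4 a lower one (0.0231%). Among the 4 were Hal, Hmox1 and Car4. Hmox1, heme oxygenase 1, was at 159, 129, 138, 137 and 137 CPM in injured and 155, 118, 139.9, 138 and 144 CPM in uninjured MRL/MpJ joints (log2 0.03) and changed by 1.03 in STR/ort (difference -1.01, SE 0.15, adjusted p = 0.00224). Car4, a carbonic anhydrase of capillaries, was at -0.27 and 1.18 (adjusted p = 0.0327). Of the 24, the genes with the smallest adjusted p are given with the change in MRL/MpJ first and that in STR/ort second. Aldh1a3, which makes retinoic acid, was at 0.13 and -1.26 (adjusted p = 0.00224), Ptn, the growth factor pleiotrophin, at -0.04 and -1.03 (adjusted p = 0.0178), Itih5 at -0.46 and -1.30 (adjusted p = 0.0178) and Fam124a at -0.33 and -1.54 (adjusted p = 0.0163). Folr2, the folate receptor of tissue-resident macrophages, was up-regulated in MRL/MpJ, at 8.29, 9.903, 7.97, 8.41 and 9.42 CPM against 5.59, 4.88, 5.84, 4.66 and 4.91 CPM (log2 0.79, adjusted p = 0.011), and was at -0.55 in STR/ort (difference 1.34, adjusted p = 0.0178). Against the 0-day joints Folr2 was under the fold threshold (log2 0.55). The count of 28 depended on single libraries, from 6 without MRL/MpJ uninjured replicate 3 to 76 without STR/ort injured replicate 5. The count of 55 against C57BL/6 ranged from 25 without MRL/MpJ injured replicate 3 to 120 without C57BL/6 injured replicate 2.

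For the following genes a difference between strains was not called. Il1b, at 0.004 in MRL/MpJ, was at 0.62 in C57BL/6 and 0.77 in STR/ort, and the differences of -0.62 (SE 0.20, adjusted p = 0.192) and -0.76 (SE 0.19, adjusted p = 0.128) missed the threshold. Cxcl5 was at 1.59, 2.70 and 3.30 in MRL/MpJ, C57BL/6 and STR/ort (adjusted p of the differences 0.437 and 0.32). Rrad was at 4.01, 2.13 and 3.16 (adjusted p = 0.0671 and 0.785), and Ankrd1 at 3.58, 2.12 and 2.28 (adjusted p = 0.269 and 0.594). Ccl2 changed by 3.65, 3.31 and 3.52, and Ptgs2 by 2.30, 2.13 and 2.19, with no difference called.

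**Figure D5:**
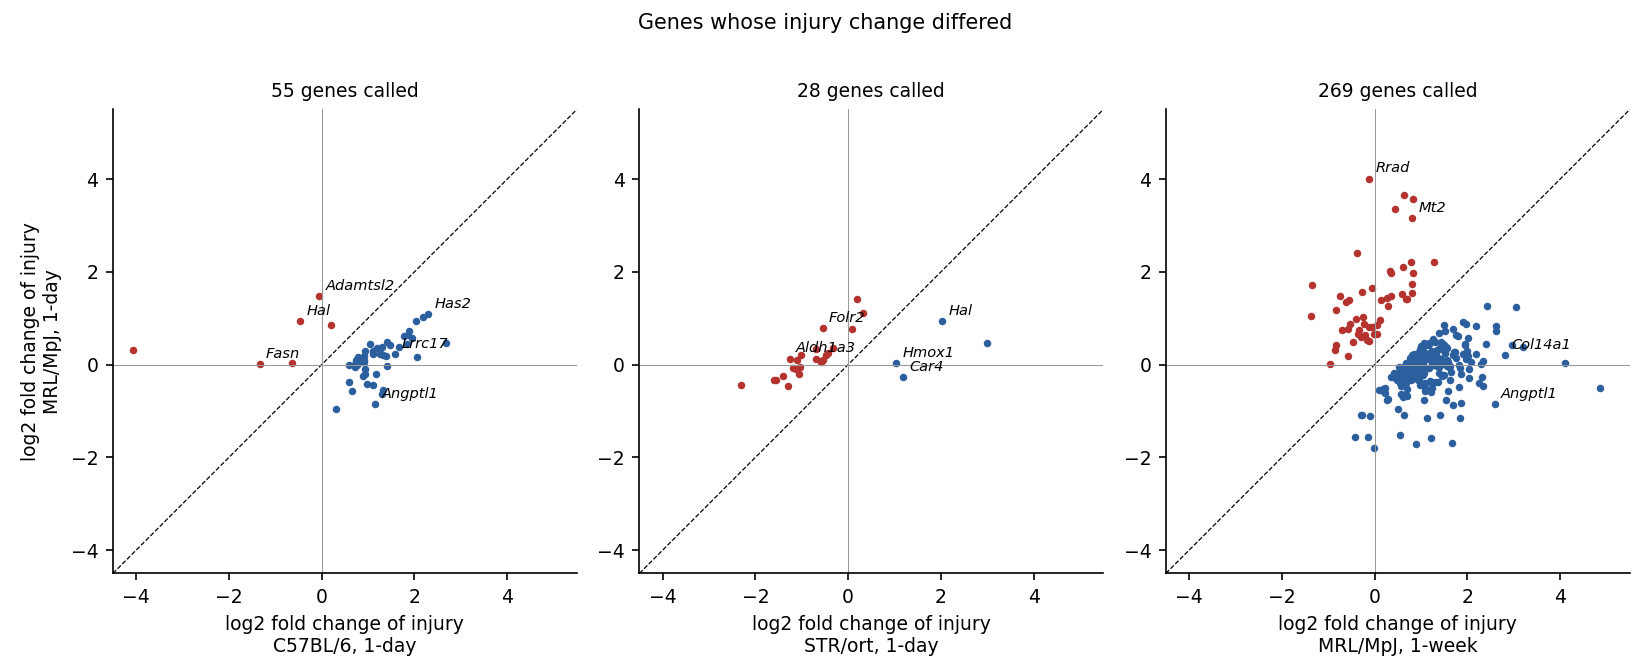
Log2 fold change of injury in MRL/MpJ at 1-day (vertical axis) against that in C57BL/6 at 1-day, STR/ort at 1-day and MRL/MpJ at 1-week (horizontal axes) for the 55, 28 and 269 genes whose change was called different. Red points have a higher and blue points a lower change in MRL/MpJ at 1-day, and equal changes would lie on the dashed line.

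The last comparison set the 1-day change beside that at 1-week in 5 injured and 4 uninjured MRL/MpJ joints of the same experimental batch. At 1-week 563 genes were higher (3.25% of the genes tested) and 53 lower (0.306%), 3.56% in all. Of the 264 genes higher at 1-day 139 were also called higher at 1-week (52.7% of the former and 24.7% of the latter), and of the 86 lower genes 9 were lower again (10.5% and 17%) while 10 were called higher. The change itself differed for 269 genes, with a higher value at 1-day for 52 (0.3%) and a lower value for 217 (1.25%). Genes named with a higher change at 1-day are given first. Rrad went from log2 4.01 at 1-day to -0.12 at 1-week (difference 4.13, SE 0.45, adjusted p = 1.40e-06), Mt2 from 3.16 to 0.80 (adjusted p = 4.90e-06) and Mt1 from 2.02 to 0.34 (adjusted p = 5.41e-06). Il4ra went from 1.47 to 0.36 (adjusted p = 1.39e-05), Ccl2 from 3.65 to 0.63 (adjusted p = 0.00465), and Trim63, with the opposite sign at 1-week, from 1.34 to -0.62 (adjusted p = 8.51e-04).

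Genes named with a lower change at 1-day included collagens and other matrix genes, while a difference was not called for Lox (log2 0.32, adjusted p = 0.501) or Vcan (log2 -0.64, adjusted p = 0.155). Col14a1, a collagen that organises fibril surfaces, was at log2 0.20 at 1-day and 2.80 at 1-week (difference -2.60, SE 0.13, adjusted p = 5.21e-12). Fndc1 was at 0.08 and 2.35 (adjusted p = 6.43e-09), Ssc5d at -0.27 and 2.31 (adjusted p = 1.46e-10) and Antxr1, a collagen-binding receptor, at 0.05 and 1.58 (adjusted p = 4.27e-09). Angptl1 and Nov, lower at 1-day at -0.85 and -0.87, were at 2.59 and 1.69 at 1-week (adjusted p of the differences 3.77e-10 and 1.00e-07). Col3a1 was at 0.72 and 2.61 (adjusted p = 9.64e-08). The collagen list held 6 called genes of 23 at 1-day and 17 at 1-week, all higher, with medians of 0.437 and 0.901. Of all genes tested, 1.53% were called higher at 1-day and 3.25% at 1-week. For other genes a difference between the days was not called, as for Mmp3 at 2.41 and 2.90 (adjusted p = 0.778), Tnfaip6 at 2.57 and 2.96 (adjusted p = 0.903), Ptgs2 at 2.30 and 2.77 (adjusted p = 0.92) and Pdpn at 2.09 and 1.85 (adjusted p = 0.805).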

How the data were processed

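Joints were dissected, RNA was extracted and poly(A)-enriched libraries were sequenced by the study. The authors aligned the reads to mm10 with TopHat2 (version 2.0.11), used featureCounts to assign reads to RefSeq genes, and deposited whole-number counts without normalization, as the submitters' processing notes and the study's methods describe. The libraries used here form 1 experimental batch in the labels. The table lists 17313 genes; 24 names had turned into dates and 3 repeated entries were dropped. No gene of the remaining 17310 failed the minimum of 2 counts in 5 libraries.

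Counts were tested with the quasi-likelihood test of edgeR (version 4.0.16, R 4.3.3) with TMM factors, Benjamini-Hochberg adjustment over all genes and the study's thresholds. The fit held all 30 1-day libraries with 1 mean per strain and joint, so that the groups shared 1 estimate of the spread. The comparison with 1-week used 19 MRL/MpJ libraries. The study used housekeeping genes with RUVSeq, but its number of factors and its edgeR test are not given in the sources used here. The standard error of a log2 fold change was its size divided by the root of F. The CPM levels used TMM factors computed on all 100 libraries. Total counts of the 10 compared libraries were 9790572 to 12741841. Gene positions were matched by symbol to RefSeq for 16660 genes. On simulated data with 200 changed genes in the 1-day comparison, 99% of 2-fold and 100% of 4-fold changes were recovered and 5 unchanged genes were called. The changed genes were drawn only from genes with many reads, and all other means were equal between groups. These rates therefore do not cover genes with few reads.

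Genes named are the 12 higher and 8 lower with the smallest adjusted p, up to 5 called members per list and direction, up to 5 genes per interaction and direction, the genes that the study names for this strain or time, and markers or list members needed beside them. Some genes that this rule names are not reported here. The genes whose promoters are printed and the library that stands apart were singled out after values were seen. Gene lists, members and tests were chosen with earlier results of these data known. Alternatives were RLE factors, housekeeping scaling, RUVg by its formula with 1 or 2 factors, DESeq2 (version 1.42.0), no filter, filterByExpr, adjusted p alone, a replicate block, the compared groups alone, 0-day joints as control and each library left out. Overlapping and antisense genes, and near-identical copies, may share reads. At these depths, genes with few reads carry wide errors.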

Additional observations from a re-analysis of the deposited data

Results flagged for a closer look

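A lone library, far from the other 4 of its group by Dixon's criterion at the 95% level, was found in 22 of 296 groups of the genes named and in 4 of 36 groups of summed markers, where chance alone gives about 1 group in 20. Injured replicate 2 was the high library for C3ar1 at 53.14 CPM against 29.7 to 34.99 CPM, Timp1 at 95.58 CPM against 64.39 to 71.24 CPM, Ccl7 at 16.89 CPM against 10.53 to 12.35 CPM, Slc39a14 at 93.55 CPM against 62.25 to 71.15 CPM, Adamts4 at 9.991 CPM against 6.812 to 7.697 CPM and Hif1a at 177.6 CPM against 138.2 to 149.4 CPM. All 6 genes were called higher, and Hif1a fell below the fold threshold without this library (log2 0.53) or without uninjured replicate 3 (log2 0.57). Injured replicate 5 stood apart with Myh4 at 32770 CPM against 16920 to 19960 CPM, Car4 at 11.07 CPM against 5.659 to 6.714 CPM, Lcn2 at 701.8 CPM against 906.9 to 955.6 CPM and Areg at 0.09147 CPM against 0.2652 to 0.2962 CPM, and for the summed markers with summed fast muscle markers at 105300 CPM against 59470 to 72490 CPM and summed keratinocyte markers at 10.88 CPM against 6.358 to 7.608 CPM. Among the other injured libraries, the values were Ptn at 14.86 CPM against 17.51 to 18.11 CPM and Fos at 18.8 CPM against 16.04 to 16.55 CPM in replicate 4, and Ssc5d at 19.64 CPM against 28.63 to 32.01 CPM in replicate 3.

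Among the uninjured libraries, replicate 1 had Rrad at 7.845 CPM against 3.43 to 4.661 CPM, Cfb at 28.37 CPM against 22.59 to 23.39 CPM and summed mast cell markers at 68.34 CPM against 62.76 to 63.05 CPM. Replicate 2 had Plau at 17.99 CPM against 22.51 to 22.84 CPM, Nr4a1 at 100.5 CPM against 64.9 to 72.53 CPM, Cd68 at 43.79 CPM against 55.66 to 59.27 CPM and summed slow muscle markers at 1403 CPM against 1147 to 1165 CPM, replicate 3 Fbxo32 at 339.6 CPM against 270.1 to 275 CPM, and replicate 4 Fam124a at 7.739 CPM against 5.566 to 5.736 CPM, Stat3 at 123.2 CPM against 130.6 to 133 CPM and Has2 at 7.739 CPM against 5.842 to 6.233 CPM.

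The injury change differed between strains, by the interaction test of edgeR, for genes named in the report, given as the log2 change in MRL/MpJ minus that in the other strain. Against C57BL/6 the difference was positive for Fasn (1.34), Hal (1.40), Adamtsl2 (1.53), Acaca (0.68) and BE949265 (4.37) and negative for Postn (-1.23), Lrrc17 (-1.36), Phldb2 (-0.85), Angptl1 (-2.01), Col14a1 (-1.11), Col3a1 (-1.16), Has2 (-1.20), Trem2 (-1.10) and Adgre1 (-0.63). Against STR/ort it was positive for Aldh1a3 (1.39), Fam124a (1.21), Ptn (0.99), Itih5 (0.84), Folr2 (1.34) and Col14a1 (1.22) and negative for Hal (-1.09), Hmox1 (-1.01) and Car4 (-1.46). Col14a1 was thus below C57BL/6 and above STR/ort, and was not called in MRL/MpJ itself.

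Between 1-day and 1-week in MRL/MpJ, the log2 change at 1-day minus that at 1-week was positive for Msr1 (1.14), Rrad (4.13), Tubb6 (0.71), Mt2 (2.36), Mt1 (1.68), Timp1 (0.94), Adamtsl2 (2.22), Il4ra (1.11), Cxcl14 (0.93), Ccl2 (3.02), Slc39a14 (0.74), Junb (0.97), Hspb1 (1.94), Ankrd1 (2.76), Flnc (1.38), Trim63 (1.96), Fbxo32 (1.44), Nog (1.82) and Fcgr1 (1.16). It was negative for Pck1 (-1.14), Ntrk3 (-2.60), Scara5 (-1.48), Slc7a10 (-1.79), Postn (-1.13), Angptl1 (-3.44), Fam124a (-1.13), Ptn (-1.44), Itih5 (-1.03), Col14a1 (-2.60), Ssc5d (-2.58), Antxr1 (-1.53), Fndc1 (-2.27), Nov (-2.56), Col6a3 (-1.08), Col5a3 (-0.69), P4ha3 (-1.81), Col3a1 (-1.89), Nr4a1 (-0.81), Fstl1 (-0.92) and Htra4 (-2.06). Of the negative set, Pck1, Ntrk3, Scara5, Slc7a10, Angptl1, Nov, Nr4a1 and Htra4 were themselves called lower at 1-day.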

How the results depend on the processing

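The 264 higher genes became 242 to 363 under the other scalings, tools, filters, groups and controls, and 571 by adjusted p alone. Leaving out 1 library gave 178 to 270, lowest without injured replicate 2. The 86 lower genes became 58 to 94 under most settings, but 168 by adjusted p alone, 131 in a fit of the 10 MRL/MpJ libraries alone, 279 with the 0-day joints as control (58 shared), and 43 with the fast muscle level as a covariate, a setting chosen after seeing the data. With that covariate 87.7% of the called genes were higher, against 75.4%. Leaving out 1 library gave 61 to 159, highest without injured replicate 5. The 55 genes that differed from C57BL/6 became 24 with housekeeping scaling, 134 with 2 RUVg factors, 103 with DESeq2 and 25 to 120 with 1 library left out. They were 26 without C57BL/6 injured replicate 1, 27 without MRL/MpJ uninjured replicate 1, 29 without C57BL/6 injured replicate 4 or uninjured replicate 3, and 36 without MRL/MpJ uninjured replicate 3 or C57BL/6 uninjured replicate 4. The 28 that differed from STR/ort were 21 to 38 under the other settings and 6 to 76 with 1 library left out. The 269 between 1-day and 1-week were 239 to 295 with 1 library left out and 269 to 362 otherwise. Apart from the settings built to relax a threshold or drop samples, the cause was not tested. No result changed direction while called.

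Of 108 called genes named, 77 kept their call in every alternative and 31 lost it in at least 1, most often Areg, Pgam2, Angptl1 and Fgf2. With the 0-day joints as control Col5a3, Nr4a3, Csrp3, Cdkn1a, Pptc7, Folr2, Fst, Scx, Cidea and Areg were not called, Vegfa, Myh4, Stat3 and Fbxo32 were, and the changes of Ccl7, Ccl2, Ccl8, Cxcl1, Cebpb, Saa3, P4ha3, Prg4, Has1, Mustn1, Wnt2, Ereg and Fgf2 were over 1.5-fold larger. The log2 changes of all genes had a median of 0.00632, and no other scaling or tool moved it lower than -0.00292, with DESeq2.

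Replicate numbers do not pair the joints by the labels. Deviations of same-numbered joints correlated at 0.105, -0.116, 0.1, 0.417 and -0.357 for replicates 1 to 5 over 10632 genes, and 2 of 5 injured libraries correlated best with their own number, so the numbers were taken as names. A fit with a replicate block gave 243 higher (236 shared) and 86 lower genes (76 shared), and 60, 35 and 343 for the 3 interactions. Depth limits genes with few reads, such as Areg, Wnt2, Saa3 and Il6.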

Other observations

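Several further lists held no called gene, where 2.02% of all genes were called, so that a count of 0 in lists of this size is near the background. None of 23 cell cycle genes was called by edgeR (median log2 fold change -0.0355), and Mki67, a marker of dividing cells that is abundant in marrow, was at 1806 to 2499 CPM in injured and 1836 to 2360.5 CPM in uninjured joints (log2 -0.03, adjusted p = 0.951). None of 22 interferon-stimulated genes was called, with 18 of 22 above 0 (median 0.279). None of 19 circadian clock genes (median -0.104) and none of 18 cholesterol and lipid synthesis genes (median 0.128) was called. The 25 housekeeping genes of the study gave 0 calls and a median of 0.0424.

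Single markers of other cell types were called. Tpsab1, a tryptase of mast cells, was at 3.46, 3.802, 1.71, 3.22 and 1.83 CPM in injured and 2.36, 1.41, 0.531, 0.879 and 1.23 CPM in uninjured joints, with overlap (log2 1.16, adjusted p = 0.0161), and its call was lost in 7 of 21 alternatives, with 1 or 2 RUVg factors, with the fast muscle covariate (adjusted p = 0.178) and without injured replicate 1 or 2 or uninjured replicate 3 or 4. It was the only one of 8 mast cell markers that was called. Of the 8 genes that the study marked as highest in MRL/MpJ on these samples, which is no independent evidence, Tpsab1 and Ankrd1 were called. Tnfrsf11a, which encodes RANK, the receptor that drives osteoclast formation, was at 17.2, 20.1, 14.7, 17.8 and 17.1 CPM against 11.1, 8.67, 10.2, 13.1 and 10.3 CPM (log2 0.72, adjusted p = 3.43e-05) and was the only called gene of 9 osteoclast markers, whose sum was 1013 to 1290 CPM in injured and 902.3 to 1370 CPM in uninjured joints. Endothelial markers summed to 393.9 to 437.8 CPM and 382.4 to 407.5 CPM with 0 of 8 called, and markers of Schwann cells and nerve also had 0 of 8 called. With 2.02% of all genes called, 0 of 8 is near the background.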
